A study of Mus musculus with 6 samples.

Results

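The genes described here are 10 regulators of RNA splicing and stability that are best known from neurons: Elavl2, Elavl3, Elavl4, Celf3, Celf4, Nova1, Nova2, Srrm4, Ptbp1 and Ptbp2. They were taken by gene symbol from a table of 22477 genes. All 10 were found, and all 10 were among the 18027 genes that passed the filter on low counts. The libraries come from lung tumors of 4 RPM mice and from normal lung of 2 others, a model of small cell lung cancer that carries floxed Rb1, floxed Trp53 and a Cre-activated MycT58A allele. Every animal, normal lung included, is labelled with the same Rb1/Trp53/MycT58A genotype and with Ad5CGRP-Cre, an adenovirus put into the airway in which the promoter of the CGRP gene drives Cre recombinase in neuroendocrine cells. The protocol gives an age of 8 weeks at induction for a first cohort of 20 mice. That protocol describes vehicle, entinostat and anti-PD-1 arms, but neither the arm nor the age at sampling of these 6 animals is stated in the labels. Names follow the numbers in the titles (normal 1 and 2, tumors 3 to 6), with a different mouse for each library and all of them in batch 1.

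Neurons splice and stabilize many transcripts differently from other cells, and a small set of RNA-binding proteins does much of this work. The neuronal Elavl proteins (also called Hu proteins, and known as autoantigens in patients with small cell lung cancer) bind U-rich elements, Nova proteins bind YCAY clusters, and Srrm4 promotes the inclusion of very short neuronal exons. Ptbp1 represses neuronal exons in most non-neuronal cells, among them an exon of its paralog Ptbp2, and in developing neurons Ptbp1 gives way to Ptbp2. Srrm4 also acts on the transcript of Rest, the repressor of neuronal genes, and REST in turn represses Srrm4.

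Total counts per library were 54735438 to 99122494. Normal lung carried the defining markers of its cell types, with a summed level of 5 alveolar type 2 genes of 18403 and 19896 CPM (counts relative to the library total, after TMM scaling for composition) against 54.8 to 635 CPM in tumors. The 10 neuroendocrine markers summed to 21.5 and 31.3 CPM in normal lung and 1006 to 1546 CPM in tumors. Counts of whole tissue do not tell fewer cells of a type from less RNA per cell. The markers of normal lung cells moved with each comparison of tumor with normal lung below, and their part in these results was not tested.

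The promoter windows of 4 genes are shown because these genes carry the main contrasts below: Ptbp1, which did not pass the test, and Ptbp2, Srrm4 and Elavl3, which rose. Each is the stretch of 250 bases before the RefSeq start in GRCm38.p6, read 5′ to 3′ on the gene's strand, and each of these genes has a single start in that table. The Ptbp1 window lies at chr10:79854182-79854431 on the plus strand, that of Srrm4 at chr5:116591818-116592067 on the minus strand, that of Elavl3 at chr9:22052024-22052273 on the minus strand and that of Ptbp2 at chr3:119783389-119783638 on the minus strand. Capitals mark the E-box motifs CACGTG (the form bound by Myc with Max), CAGATG (favoured by Neurod1) and CAGCTG, searched on both strands.
Ptbp1: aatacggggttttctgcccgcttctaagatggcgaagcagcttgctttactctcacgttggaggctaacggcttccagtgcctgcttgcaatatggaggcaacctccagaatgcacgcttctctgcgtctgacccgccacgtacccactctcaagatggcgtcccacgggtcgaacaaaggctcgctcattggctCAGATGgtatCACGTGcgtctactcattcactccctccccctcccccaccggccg
Srrm4: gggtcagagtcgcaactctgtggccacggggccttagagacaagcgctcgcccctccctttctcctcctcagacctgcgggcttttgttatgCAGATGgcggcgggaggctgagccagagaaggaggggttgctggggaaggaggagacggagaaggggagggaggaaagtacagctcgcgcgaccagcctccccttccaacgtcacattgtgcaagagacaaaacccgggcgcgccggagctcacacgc
Elavl3: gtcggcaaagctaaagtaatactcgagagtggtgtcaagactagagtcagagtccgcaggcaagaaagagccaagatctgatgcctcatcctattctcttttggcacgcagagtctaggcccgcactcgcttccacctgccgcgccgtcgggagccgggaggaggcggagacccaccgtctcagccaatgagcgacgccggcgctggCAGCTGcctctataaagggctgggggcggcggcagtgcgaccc
Ptbp2: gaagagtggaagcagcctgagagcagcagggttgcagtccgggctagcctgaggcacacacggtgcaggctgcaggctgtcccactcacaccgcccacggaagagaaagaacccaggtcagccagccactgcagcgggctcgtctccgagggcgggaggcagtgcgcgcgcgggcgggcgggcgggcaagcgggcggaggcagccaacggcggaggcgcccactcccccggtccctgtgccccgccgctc
The Ptbp1 window held a CAGATG 55 bases and a CACGTG 45 bases before the start, counted from the first base of the motif. The Srrm4 window held a CAGATG at 158 bases and the Elavl3 window a CAGCTG at 43 bases, and the Ptbp2 window held none of the 3 motifs. Of 32851 such windows of mouse genes, 6.02% held CACGTG, 14.4% CAGATG and 13.0% CAGCTG. RefSeq windows were found for 9 of the 10 genes, all but Celf4. These 9 genes have 23 windows, since Celf3, Elavl2 and Elavl4 have several annotated starts. CACGTG was in 1 of the 23 (Ptbp1), CAGATG in 8 (Elavl4, Celf3, Srrm4 and Ptbp1) and CAGCTG in 7 (Elavl3, Elavl4, Celf3 and Nova1), and the windows of a gene can overlap. The letters TTCAGCACC, the left part of the REST element, were in none of the 23 and in 0.301% of all windows.

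As a group the regulators were far higher in the tumors. Of the 10 genes, 9 rose, none fell and 1, Ptbp1, did not pass (edgeR quasi-likelihood test, adjusted p = 0.329, unadjusted p = 0.276). Over all genes tested 63.9% were called, 31.3% higher and 32.6% lower. In the same 9 genes every tumor lay above both normal libraries, which held for 37.4% of all genes tested, and no gene of the 10 lay below both in every tumor, as 39.8% of all did. The median log2 fold change of the 10 was 5.21, beside 0.02 over all genes tested, and it was 5.96 without normal 2.

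**Figure D1:**
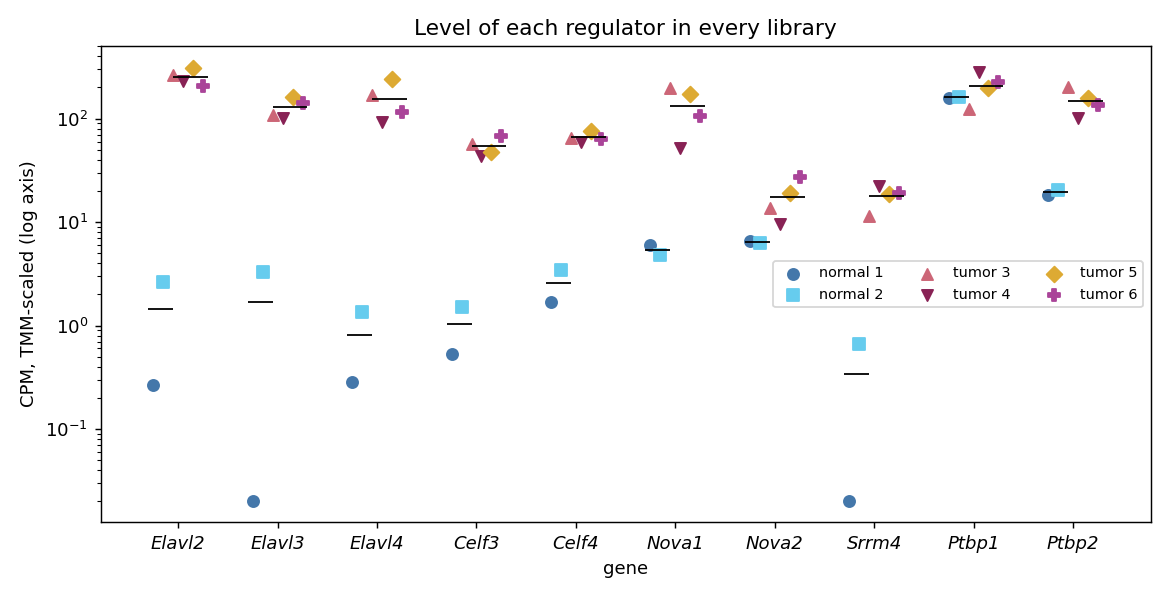
Level of each of the 10 regulators in every library, in TMM-scaled CPM on a log axis, with a bar at the mean of each group (2 normal, 4 tumor). The tumors lie above both normal libraries for every gene but Ptbp1, where tumor 3 at 123 CPM lies below them.

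The neuronal Elavl genes showed the largest fitted rises of the 10, though without normal 2 Srrm4 (9.65 on the log2 scale) was above Elavl4 (9.07). Elavl2 stood at 0.264 and 2.61 CPM in normal 1 and 2 and at 265, 230.2, 311 and 208 CPM in tumors 3 to 6. Its groups were far apart, and its log2 fold change was 7.46 ± 1.04 (SE, adjusted p = 0.00105), or 177-fold. Elavl4 stood at 0.284 and 1.35 CPM in normal lung and at 168, 93.4, 244 and 117 CPM in tumors. It rose by 7.57 ± 0.91 (adjusted p = 0.000556) and ran high in tumors 3 and 5 and lower in tumors 4 and 6. Elavl3 had 2 counts in normal 1 and 308 in normal 2, or 0.0203 and 3.32 CPM, against 109, 102, 160.1 and 143 CPM in tumors. It rose by 6.27 ± 1.56 (adjusted p = 0.0115), and its SE was the widest of the 10. Its normal libraries differed by 164-fold. The size of all 3 rises depended on which normal library was used. Without normal 2 the log2 fold changes of Elavl2 and Elavl4 were 9.88 and 9.07, and the ratio of Elavl3 counts per scaled library was 6457 (95% interval 1787 to 53318, counting error only). Without normal 1 the log2 fold changes were 6.59 for Elavl2, 5.26 for Elavl3 and 6.83 for Elavl4. The 3 genes passed the test in each case, with the spread of the single normal library taken from the tumors. With limma voom the values were 8.25 for Elavl2 and 8.82 for Elavl3.

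Elavl1, the broadly expressed paralog also called HuR, rose too but by less. It went from 84.6 ± 2.08 CPM (SD, n = 2) to 239 ± 36.6 CPM (n = 4), a log2 fold change of 1.50 ± 0.20 (adjusted p = 0.000859). The summed counts of Elavl2, Elavl3 and Elavl4 were 0.00667 and 0.0877 times those of Elavl1 in normal 1 and 2, and 2.92, 1.73, 2.68 and 1.83 times in tumors 3 to 6. In every tumor the neuronal genes together thus took more counts than Elavl1, and in both normal libraries fewer. The difference in log2 ratio was 6.53, or 8.39 without normal 2 and 4.67 without normal 1. An exact two-sided permutation test over libraries gave p = 0.0667, the smallest that 2 against 4 libraries allow, so this design cannot pass 0.05. Per kb of exon the same ratio was 2.51 to 4.41 in tumors.

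Of the Celf genes, Celf3 and Celf4 rose. Celf3, a brain-enriched splicing factor, stood at 0.528 and 1.52 CPM in normal lung and at 56.6, 43.8, 48.0 and 68.2 CPM in tumors, a log2 fold change of 5.72 ± 0.55 (adjusted p = 0.000242). Without normal 2 it was 6.66. Celf4, which also regulates neuronal transcripts in the cytoplasm, stood at 1.70 and 3.42 CPM in normal lung and at 65.1, 59.5, 76.5 and 63.7 CPM in tumors. Its rise of 4.69 ± 0.36 (adjusted p = 0.000115) had the smallest p of the 10, and its tumors differed least, spanning 1.29-fold. Celf1 and Celf2, found in many tissues, did not pass, with Celf1 at 0.23 ± 0.17 (adjusted p = 0.272) and Celf2 at 0.76 ± 0.29 (adjusted p = 0.0589) on the log2 scale. Every tumor was above both normal libraries for Celf2, which passed with DESeq2 (adjusted p = 0.0268), RLE (0.0425) or upper quartile scaling (0.0344), a stricter filter (0.0401), the small RNA and histone rows removed (0.0376) or tumor 4 left out (0.0227). Celf3 and Celf4 counts together were 0.00862 and 0.0199 times those of Celf1 and Celf2 in normal lung and 0.423, 0.354, 0.298 and 0.304 times in tumors. The neuronal pair remained below the other pair in counts in every tumor. The log2 ratio was higher by 4.70 in tumors (exact two-sided permutation p = 0.0667), and by 4.10 without normal 1 and 5.31 without normal 2.

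The Nova genes diverged. Nova1, the antigen of paraneoplastic opsoclonus-ataxia, stood at 6.05 and 4.77 CPM in normal lung and at 197, 52.3, 175 and 106 CPM in tumors, and rose by 4.61 ± 0.64 (adjusted p = 0.00103). Its tumors spanned 3.77-fold, the widest span of the 10, with tumor 4 the lowest. Nova2, its paralog with a role in neocortex and vessel development, stood at 6.57 and 6.30 CPM in normal lung and at 13.7, 9.52, 19.1 and 27.4 CPM in tumors. The groups of Nova2 did not overlap, but its rise of 1.44 ± 0.45 (adjusted p = 0.0278) missed the threshold without normal 1 (adjusted p = 0.127), normal 2 (0.134) or tumor 5 (0.0577). Counts of Nova2 were 1.09 and 1.32 times those of Nova1 in normal lung and 0.0697, 0.182, 0.110 and 0.258 times in tumors 3 to 6. Near-equal counts in normal lung thus became a strong excess of Nova1 in tumors, a shift of -3.12 in the log2 ratio of Nova2 to Nova1 (exact two-sided permutation p = 0.0667).

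Srrm4, the neural SR-related protein that drives microexon inclusion, was close to undetected in normal 1. It had 2 and 61 counts in normal 1 and 2, or 0.0203 and 0.658 CPM, and stood at 11.5, 22.6, 18.7 and 19.2 CPM in tumors 3 to 6. Every tumor was above both normal libraries, with a log2 fold change of 5.73 ± 1.23 (adjusted p = 0.00649). Without normal 1 it was 4.75, and without normal 2 the ratio of counts was 871 (95% interval 241 to 7196, counting error only), both past the threshold, and with limma voom 7.09. Srrm4 shares 68 exon bases with the antisense gene Srrm4os in GRCm38, which had 0 and 7 counts in normal lung and 231 to 401 in tumors. Srrm3, its paralog, was not detected in normal 1, with 0 and 60 counts in normal lung and 15.5, 12.6, 16.3 and 18.8 CPM in tumors. It rose by 5.61 ± 1.47 (adjusted p = 0.0142), by 8.14 with limma voom and by 4.59 without normal 1. Without normal 2 it was at least 526-fold higher, taking 3 counts over the remaining normal library as the floor. Srrm3 was named after its values were seen.

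The Ptbp genes did not show a plain exchange of Ptbp1 for Ptbp2. Ptbp2, the neuronal form, stood at 18.4 and 20.6 CPM in normal lung and at 200.4, 101, 158 and 136 CPM in tumors, and rose by 2.93 ± 0.32 (adjusted p = 0.000384), or 7.63-fold. Ptbp1, the repressor of neuronal exons, stood at 157 and 163 CPM in normal lung and at 123, 285, 199 and 225 CPM in tumors. Tumors 4, 5 and 6 were above both normal libraries and tumor 3 was below them, and the log2 fold change of 0.38 ± 0.32 did not pass. It was 0.57 without tumor 3 (adjusted p = 0.0509) and 0.19 without tumor 4 (adjusted p = 0.561), and stayed above 0 in each of the 14 alternative settings. Ptbp1 shares 295 exon bases, 6.22% of its exon length, with the opposite-strand gene E130317F20Rik in GRCm38, whose level was at most 23.0 CPM in any library. Ptbp3, the paralog known from blood cells, was named after its values were seen. It fell by 1.18 ± 0.36 on the log2 scale (adjusted p = 0.0249), from 325 and 294 CPM to 109, 151, 207 and 79.0 CPM, a call lost without normal 1 (adjusted p = 0.112), normal 2 (0.0772) or tumor 3 (0.0616).

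The balance of the pair moved toward Ptbp2 in every tumor, but to different degrees. Ptbp2 counts were 0.117 and 0.126 times those of Ptbp1 in normal 1 and 2, and 1.63, 0.353, 0.795 and 0.604 times in tumors 3, 4, 5 and 6. The mean log2 ratio went from -3.04 ± 0.08 (SD, n = 2) to -0.46 ± 0.92 (n = 4), a difference of 2.58 that corresponds to 5.96-fold (exact two-sided permutation p = 0.0667). It was 2.19 without tumor 3, or 2.92 without tumor 4. In counts, Ptbp2 exceeded Ptbp1 in tumor 3 alone. Per kb of exon the ratio was 0.0604 and 0.0653 in normal lung and 0.841, 0.183, 0.411 and 0.312 in tumors 3 to 6. The length of a gene was that of all its annotated exons merged, 9.175 kb for Ptbp2 and 4.74 kb for Ptbp1. The lengths of the transcripts present were not measured. On that scale Ptbp1 remained the more abundant of the pair in every library, but in tumor 3 this rests on the lengths used.

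**Figure D2:**
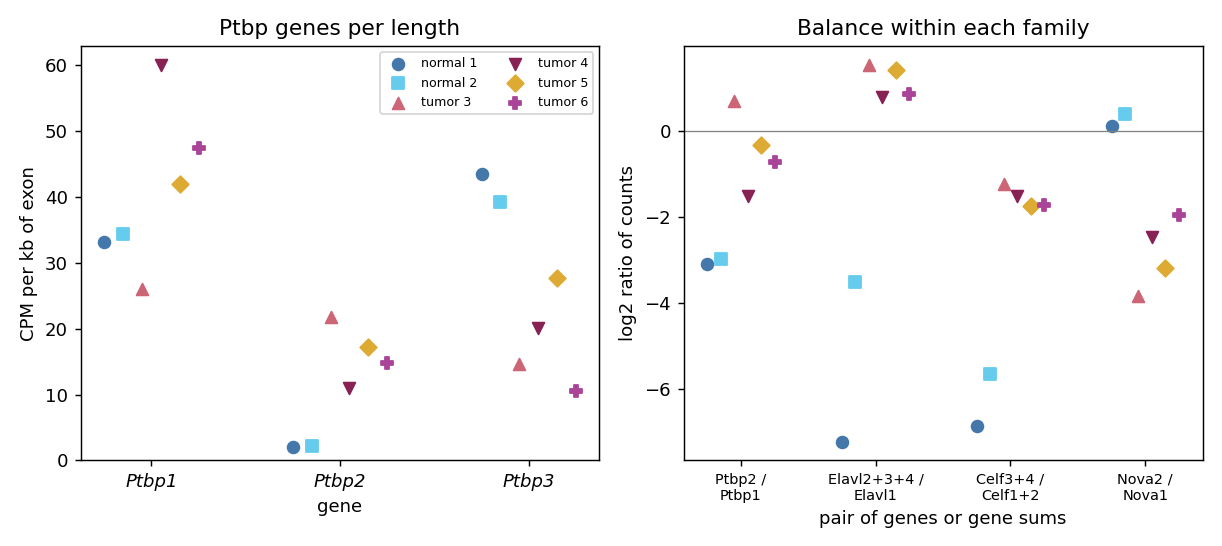
Left, CPM per kb of exon of Ptbp1, Ptbp2 and Ptbp3 in each library. Right, log2 ratio of counts within 4 families, with points for the 2 normal and 4 tumor libraries: the Ptbp2 to Ptbp1 ratio lies near -3.04 in normal lung and between -1.50 and 0.70 in tumors, and the Nova2 to Nova1 ratio moves the other way.

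Genes whose profile was most like that of Ptbp1 or Ptbp2 over the 6 libraries were sought among 10601 genes with a mean log2 CPM of at least 3, by the root mean square difference of log2 CPM centred on each gene's mean. For Ptbp1 the nearest were Smarcd2, a BAF complex subunit (0.09), Lrrc75a (0.10) and Camk1d, a calmodulin-dependent kinase (0.12). For Ptbp2 they were Sept5, a septin of synaptic vesicles (0.08), Zik1, a zinc finger gene (0.11), and Prdx2, a peroxiredoxin (0.14). Smarcd2 stood at 89.3 and 88.5 CPM in normal lung and at 57.4, 147, 100.2 and 110.2 CPM in tumors, with the same low value in tumor 3 and high value in tumor 4 as Ptbp1. These are descriptions of 6 libraries that share the contrast between tissues.

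Levels of different genes were compared per kb of exon, with all annotated exons of a gene merged, from GENCODE on GRCm38. The order of mean tumor levels in CPM per kb was Ptbp1 (43.9), Elavl2 (30.5), Elavl4 (28.8), Elavl3 (18.6), Ptbp2 (16.2), Nova1 (15.2), Celf3 (9.90), Celf4 (7.71), Nova2 (2.08) and Srrm4 (2.07). Neighbours in this order overlapped over the 4 tumors at every step but that from Celf4 to Nova2, where the lowest Celf4 value was 6.93 and the highest Nova2 value 3.27. In normal lung Ptbp1 was first at 33.8 ± 0.83 and Ptbp2 next at 2.12 ± 0.17 (SD, n = 2), and the other 8 genes were each at 0.0391 to 0.769.

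For 8 of the 10 genes the level was higher in normal 2 than in normal 1. Of the 10 genes, 6 were over 2-fold higher in normal 2: Elavl2 (9.88-fold), Elavl3, Elavl4 (4.74-fold), Celf3 (2.88-fold), Celf4 (2.02-fold) and Srrm4 (32.4-fold). Nova1, Nova2, Ptbp1 and Ptbp2 differed between the normal libraries by 0.788- to 1.12-fold. For those 6 genes the level in normal 2 was 0.868% to 5.17% of the tumor mean, and in normal 1 it was 0.0158% to 2.56%. Most markers of neuroendocrine cells moved with this difference, since 7 of 10 were over 2-fold higher in normal 2 or counted there alone. Among these were (picked after seeing the values) Insm1 at 1.27 against 0.163 CPM and Neurod1 at 12 counts against 0. The markers outside the 7 stood in normal 2 at 0.947- to 1.24-fold of normal 1, the most abundant marker of normal 1 among them. Of 8 markers of autonomic neurons 6 were over 2-fold higher in normal 2 or counted there alone. The sum of the 8 was 1.61 CPM in normal 1 and 2.70 CPM in normal 2. Of 6 striated muscle markers 4 were over 2-fold higher in normal 2. Myh6 was among these, at 64.7 and 239 CPM in normal 1 and 2, while Myh7 went the other way, at 169 and 140 CPM. Acta1, Ckm and Actn2, also among the 4, were at 0.152 to 2.17 CPM in normal 1. The autonomic count rests on few reads: Th, Dbh and Chat had 0 counts in normal 1 and 21, 5 and 2 in normal 2. Phox2a, at 134 and 129 counts, was not over 2-fold higher and made up most of each sum. None of the 6 Schwann cell markers or the 5 proliferation markers was over 2-fold higher. Each proliferation marker was still higher in normal 2, by 1.25- to 1.52-fold. Their sum was 90.1 CPM in normal 1 and 120 CPM in normal 2. The share of all genes over 2-fold higher in normal 2 was not counted, so these counts have no background beside them. The part of neuroendocrine, neuronal or muscle cells in the difference was not tested.

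**Figure D3:**
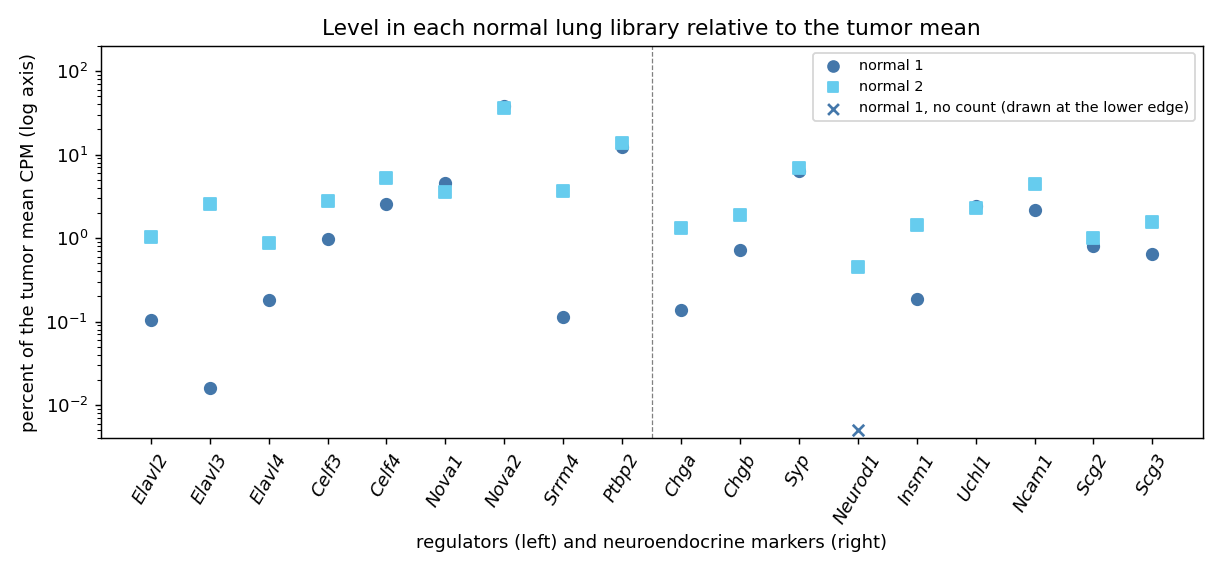
Level of the regulators (left, without Ptbp1) and of 9 of the 10 neuroendocrine markers (right) in each normal library, as a percent of the mean of the 4 tumors, on a log axis, with a cross at the lower edge where normal 1 had no count (Neurod1). Normal 2 lies above normal 1 for Elavl2, Elavl3, Elavl4, Celf3, Celf4 and Srrm4, while Nova1, Nova2 and Ptbp2 nearly coincide.

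The tumors also differed among themselves. Tumor 4 was the lowest of the 4 for 7 of the 10 genes, and this count was the same with TMM, RLE or upper quartile scaling and with total counts. The genes outside those 7 were Elavl2, lowest in tumor 6, and Srrm4 and Ptbp1, both highest in tumor 4 and lowest in tumor 3. Relative to the tumor mean, tumor 4 was at -1.34 on the log2 scale for Nova1, -0.87 for Nova2, -0.74 for Elavl4 and -0.57 for Ptbp2, against 0.33 for Srrm4 and 0.45 for Ptbp1. Tumor 3 was at 0.57 for Nova1 and 0.43 for Ptbp2 and at -0.76 for Ptbp1. Each tumor is a single animal, so these differences have no replicate check. The tumors also differed in markers of other tissue. Summed striated muscle markers were at 856 CPM in tumor 6 and 17.5 to 44.2 CPM in tumors 3 to 5. Summed alveolar type 2 markers were at 54.8 CPM in tumor 6 and 430 to 635 CPM in tumors 3 to 5. The part of tissue content in the differences between tumors was not tested. How often tumor 4 was the lowest among all genes tested was not counted, so the 7 of 10 has no background beside it. Tumor 4 was also the lowest for every gene of the neural list below, including Cpeb3, which did not pass, and Igf2bp1, which fell. Within the broadly expressed list, tumor 4 was lowest for some genes, such as Celf2, and not for others, such as Qk. Mir124a-1hg, the host transcript of a neuronal microRNA known to repress Ptbp1, was named after its values were seen. It had 0 and 16 counts in normal lung and 678, 2, 722 and 1044 counts, not scaled to the library, in tumors 3 to 6. Ptbp1 stood at 123, 285, 199 and 225 CPM in the same tumors. No relation between the pair was tested over 4 tumors.

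**Figure D4:**
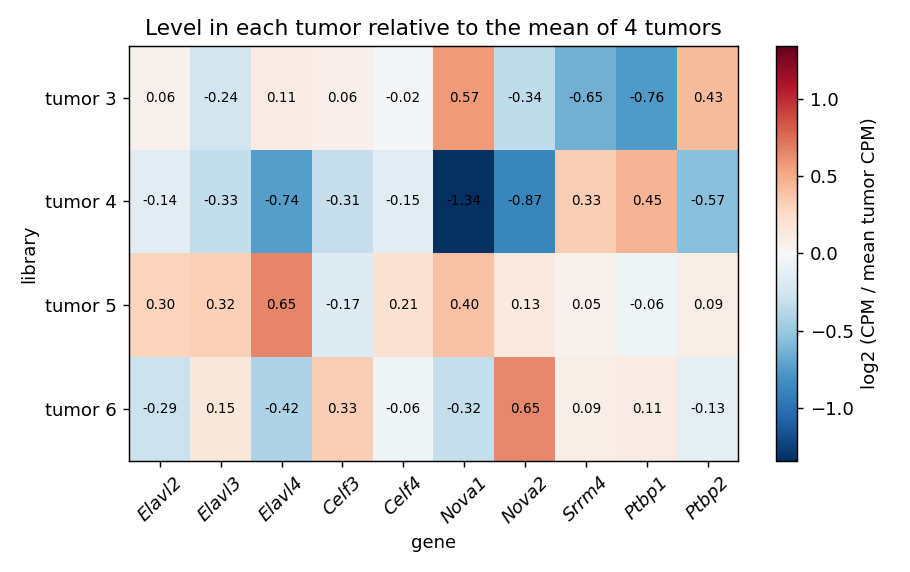
Level of each regulator in each tumor as log2 of its CPM over the mean of the 4 tumors. Tumor 4 is lowest for 7 genes, with Nova1 at -1.34, while Srrm4 and Ptbp1 are highest there and lowest in tumor 3.

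Other regulators of the same kind were read from 3 further lists. Of 10 RNA-binding genes of neural expression, 8 rose, 1 fell and 1, Cpeb3, did not pass, and the middle log2 fold change was 5.05 (5.92 without normal 2 and 4.41 without normal 1). Celf6, a brain paralog of Celf3, went from 0.184 ± 0.03 CPM (SD, n = 2) to 12.3 ± 5.36 CPM (n = 4), a rise of 6.05 ± 0.62 (adjusted p = 0.000318). Msi1, a translational regulator of neural stem cells, Celf5, and Rbfox1, a neuronal splicing factor, rose by 5.05 ± 0.60, 5.05 ± 0.93 and 5.11 ± 0.91. Without normal 2 these 3 were at 6.02, 5.81 and 6.61, and without normal 1 Msi1 and Rbfox1 were at 4.45 and 4.37. The member that fell was Igf2bp1, an oncofetal mRNA-binding gene, from 5.11 ± 0.71 to 0.103 ± 0.08 CPM (-5.58 ± 0.67, adjusted p = 0.000565), or by -6.28 without tumor 5. Without normal 1 the number that rose was 5.

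Broadly expressed regulators were called in both directions, beside shares of 31.3% higher and 32.6% lower over all genes tested. Their difference from those shares was not tested. Of 14 such genes 6 rose and 5 fell, while Celf1, Celf2 and Srrm2 did not pass; the median log2 fold change was 0.65. Besides Elavl1, the STAR-family genes Khdrbs1 and Khdrbs3 rose by 1.15 ± 0.15 and 2.43 ± 0.47, and Msi2, a paralog of Msi1, by 0.99 ± 0.22. Msi2 missed the threshold without normal 1 (adjusted p = 0.0557) or normal 2 (0.066). Qk, a STAR-family regulator also prominent in glia and vessels, fell from 833 ± 129.5 to 96.7 ± 17.7 CPM (-3.11 ± 0.21, adjusted p = 7.5e-05). All 3 muscleblind genes, which favour adult splicing patterns, fell: Mbnl1 by 1.29, Mbnl2 by 1.51 and Mbnl3 by 4.71 on the log2 scale. The number that rose was 3 without normal 1 and 3 without normal 2. Endothelial markers, with a summed level of 2988 and 3298 CPM in normal lung and 45.4 to 74.4 CPM in tumors, moved with the genes that fell. The summed alveolar, fibroblast and immune markers were likewise lower in every tumor than in both normal libraries. The part of each cell type was not tested.

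Of the 3 epithelial splicing regulators, Rbm47 fell by 3.85 ± 0.22 on the log2 scale (adjusted p = 4.3e-05), from 37.8 ± 1.99 to 2.63 ± 0.36 CPM. Esrp1 and Esrp2, the epithelial splicing proteins, did not pass (adjusted p = 0.95 and 0.245) and were named after their values were seen. Esrp1 stood at 34.5 and 28.9 CPM in normal lung and at 1.33, 108, 1.54 and 4.83 CPM in tumors 3 to 6. Esrp2 stood at 34.2 and 34.8 CPM in normal lung and at 1.83, 34.0, 1.86 and 2.51 CPM in tumors. Tumors 3, 5 and 6 lay below both normal libraries for both genes, tumor 4 did not for Esrp1, and without tumor 4 Esrp1 and Esrp2 were lower by -3.62 (adjusted p = 0.00375) and -4.06 (adjusted p = 0.000156).

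**Figure D5:**
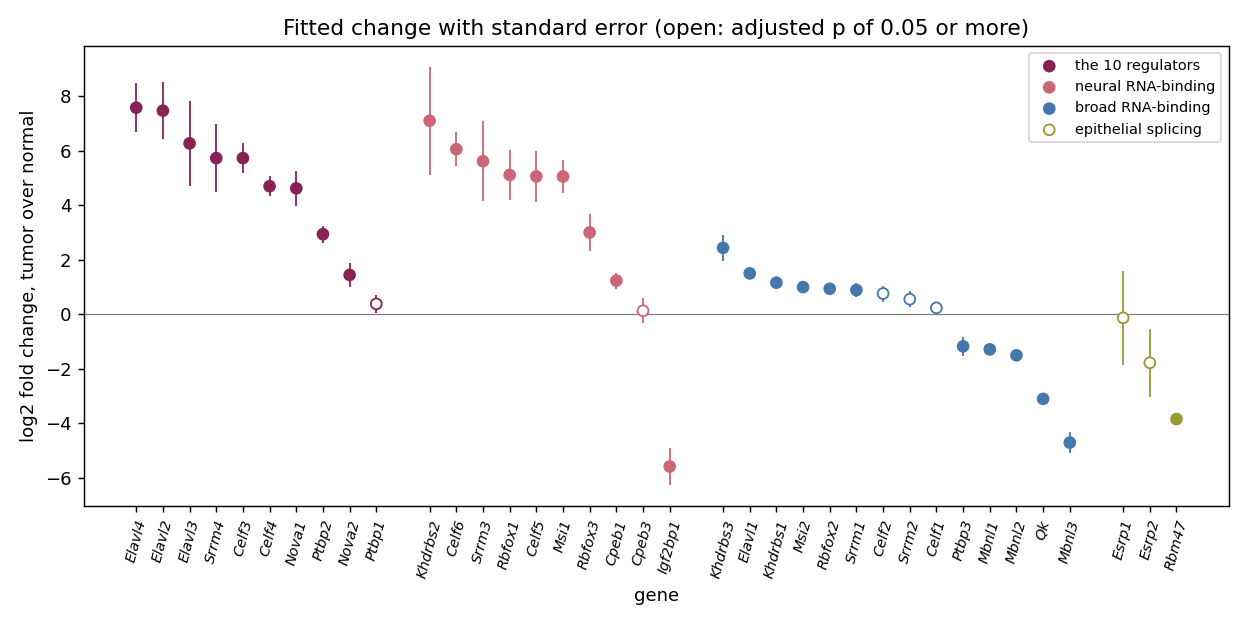
Fitted log2 fold change, tumor over normal, with its standard error, for the 10 regulators and the 3 further lists (neural, broadly expressed and epithelial RNA-binding genes). Filled points passed adjusted p under 0.05: 9 of 10 regulators and 8 of 10 neural genes lie above 0 and pass, while the broadly expressed genes split into 6 higher and 5 lower.

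Of 15 genes whose transcripts these proteins are known to splice or bind, 7 rose, 4 fell and 4 did not pass (median log2 fold change 1.35, or 0.24 with a stricter filter on low counts). Over all genes tested 31.3% were called higher and 32.6% lower, and the difference of these 15 genes from those shares was not tested. Gene counts do not show splicing, so exon use was not analysed here. Rest went from 54.2 and 53.0 CPM in normal lung to 4.10, 2.61, 2.84 and 2.60 CPM in tumors and fell by 4.14 ± 0.25 on the log2 scale (adjusted p = 4.9e-05), 17.6-fold. Kdm1a, the lysine demethylase with a neuronal microexon, rose by 1.81 ± 0.29, and Unc13a, a synaptic vesicle priming gene, by 4.93 ± 0.66 (6.11 without normal 2 and 4.27 without normal 1). Dlg4, whose transcript Ptbp1 and Ptbp2 repress by exon skipping, rose from 9.94 and 10.4 CPM to 48.8, 31.9, 38.3 and 49.4 CPM (2.05 ± 0.25, adjusted p = 0.000586). Src, which has a neuronal exon repressed by Ptbp1, fell by 1.52 ± 0.26 on the log2 scale. Agrn, the agrin gene spliced by Nova, fell by 1.83 ± 0.20 on the log2 scale. Apbb1 fell by 1.25 ± 0.30, and missed the threshold without normal 1 (adjusted p = 0.0614). The number that rose was 4 without normal 1 and 4 without normal 2.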

How the data were processed

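RNA came from flash-frozen lung tissue and was poly(A)-selected for NEBNext Ultra II libraries, per the labels' protocols. The deposited values are raw gene counts that the authors made with TPMCalculator, per the labels. Per the submitters' processing notes, which give no roles, STAR 2.5.4a, Trimmomatic 0.36, Trim Galore, R 3.5.1, DESeq2 1.22.2 and mm9 were used; annotation and strand setting are not given in the sources. Of the counts from 1 to 10, 61.2% were even, so reads of a pair may have been counted separately and counting intervals may be too narrow.

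Counts were tested with edgeR 4.0.16 (quasi-likelihood, R 4.3.3) on all 6 libraries with a single term, tumor or normal. Genes were kept by filterByExpr (count 10, total 15) and libraries scaled by TMM. Benjamini-Hochberg adjustment covered 18027 genes, with 0.05 as the threshold. SE is the log2 fold change over the square root of F. Ratios of counts used a pseudocount of 0.5. Members and lists were chosen with earlier results of these data known, and of each list up to 4 genes per direction were named by smallest p, with exceptions stated; a few listed genes are counted but not reported by name here. Alternatives were other scalings (RLE, upper quartile, total counts), filters, DESeq2 1.42.0, limma 3.58.1 (voom), leaving out each library and, added after seeing the data, removal of 1124 small RNA and histone rows. Promoters are RefSeq's on GRCm38.p6, not the mm9 of the notes.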

Additional observations from a re-analysis of the deposited data

Results flagged for a closer look

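For 6 genes of the lists, 1 of the 4 tumors lay far from the other 3, judged by the gap to its nearest neighbour as a share of the whole range (above Dixon's 95% critical value for 4 samples). Chance flags about 1 in 20 such groups when they are chosen beforehand, and 47 results were examined. Some of the 47 were added after their values were seen, among them Esrp1, Esrp2, Calca and Dab1. That rate therefore does not hold for these genes. None of the 10 regulators was among them. Esrp1 (share 0.967) and Esrp2 (0.979) stood high in tumor 4, at 108 and 34.0 CPM, as did Calca (0.831), the CGRP gene, at 293 CPM against 5.86 to 54.3 in the other tumors. Rbfox1 (0.854) stood low in tumor 4, at 11.7 CPM against 36.3 to 40.5. Rest (0.842) stood high in tumor 3, at 4.10 CPM against 2.60 to 2.84. Dab1 (0.845), the reelin adaptor gene spliced by Nova2, stood high in tumor 5, at 13.9 CPM against 1.87 to 3.74.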

How the results depend on the processing

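The count of regulators that rose was 9 in every scaling, filter and tool tried and 8 to 9 when a library was left out, where Nova2 was the gene lost. None fell in any setting. The neural list had 5 to 8 genes higher when a library was left out, the broadly expressed list 3 to 7, and the known targets 4 to 8. The epithelial list had 1 to 3 genes lower when a library was left out and 2 with limma voom, where Esrp2 passed (-3.18). The log2 fold change of Esrp1 ran from -3.62 to 0.28 when a library was left out and was above 0 without tumor 3 (0.27), tumor 5 (0.27) or tumor 6 (0.28), never past the threshold there. The cause was not tested. The 4 family ratios kept their direction throughout. The median over all genes was 0.02 as fitted, 0.14 with upper quartile scaling, 0.20 with DESeq2 and 0.12 with no filter. Ptbp1 ran from 0.19 to 0.57 over all settings. No paired analysis was possible because each library came from a different mouse. Folds of Elavl2, Elavl3, Elavl4 and Srrm4 rest on few normal counts and on 2 normal libraries that differ.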
